A study of Mus musculus with 6 samples.

Results

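Intracellular serpins were examined in activated CD4 T cells with and without the microRNA miR-155. The genes were Serpinb1a, Serpinb6a, Serpinb6b, Serpinb9 and Serpina3g, and every probe set carrying one of these symbols in the platform annotation was taken. That gave 5 probe sets for 4 of the 5 genes, among 22690 probe sets on the array. No probe set carried the symbol Serpina3g, so Serpina3g was not analysed here. The genes were chosen from results of the same knockout comparison, in which Serpinb1a had one of the larger differences. Their differences between genotypes are therefore given as a description, with no test.

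The samples were CD4 T cells isolated with magnetic beads from C57BL/6 mice, out of the spleen and the lymph nodes. One group came from mice lacking miR-155 (KO) and the other from wild-type mice (WT), with 3 arrays labelled as biological replicates in each. That each array holds 1 mouse is not certain, as the sex markers below show. Both groups had been activated for 3 days by antibodies to CD3 and CD28 (1 µg/mL), and interleukin 2 was given at 20 U/mL. Every value is thus from stimulated cells. All levels are log2 values after RMA, a method that subtracts background and summarises the probes of a probe set, and a difference is KO minus WT.

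Most serpins, though not all, inhibit proteases as suicide substrates. The protease cleaves an exposed loop of the serpin and is then trapped in a covalent complex. Members of clade B lack a classical signal peptide and act mainly inside cells, where in lymphocytes they meet the granule proteases that leak into the cytosol. Serpinb9 inhibits granzyme B, Serpinb6b has been described as an inhibitor of granzyme A, Serpinb1a inhibits neutrophil elastase, proteinase 3 and cathepsin G, and Serpinb6a inhibits cathepsin G.

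The knocked-out molecule is shown first because it is the only designed difference between the groups. It is the mature 5p strand of miR-155 at chr16:84714143-84714165 on the plus strand (RefSeq, GRCm38.p6), written 5′ to 3′ with its seed, bases 2 to 8, in capitals.

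mmu-miR-155-5p: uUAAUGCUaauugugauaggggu

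The upstream sequences of Serpinb6b, Serpinb9 and Serpinb6a are shown because these genes lie in one gene cluster but differed from each other across the arrays (described below). Each is the 250 bases before the RefSeq start (GRCm38.p6), 5′ to 3′ along the gene, and RefSeq sequence was matched for 4 of the 5 genes. The gene without a match was Serpinb1a, so the sequences leave out the gene with the largest difference. Serpina3g was matched but had no probe set and is not shown. Serpinb6b is at chr13:32965011-32965260 on the plus strand and Serpinb9 at chr13:33004291-33004540 on the plus strand. Serpinb6a, for which the first of its listed starts is shown, is at chr13:34002795-34003044 on the minus strand.

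Serpinb6b: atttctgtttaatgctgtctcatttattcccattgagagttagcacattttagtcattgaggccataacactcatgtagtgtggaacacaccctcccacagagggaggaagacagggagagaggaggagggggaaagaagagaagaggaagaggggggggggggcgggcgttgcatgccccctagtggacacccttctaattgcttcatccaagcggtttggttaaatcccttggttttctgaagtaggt

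Serpinb9: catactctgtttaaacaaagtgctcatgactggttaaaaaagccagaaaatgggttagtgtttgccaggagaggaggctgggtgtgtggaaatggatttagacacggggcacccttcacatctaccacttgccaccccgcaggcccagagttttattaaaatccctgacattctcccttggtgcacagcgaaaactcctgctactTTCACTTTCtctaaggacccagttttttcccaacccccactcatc

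Serpinb6a: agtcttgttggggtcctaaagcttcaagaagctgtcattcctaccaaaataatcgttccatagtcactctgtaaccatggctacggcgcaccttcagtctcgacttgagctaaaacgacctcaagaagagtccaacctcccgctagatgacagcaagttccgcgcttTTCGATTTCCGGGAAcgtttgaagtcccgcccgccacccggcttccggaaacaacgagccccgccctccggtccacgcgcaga

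Capitals mark matches, on either strand, to TTCNNNGAA (bound by STAT factors), TGANTCA (AP-1), GAAANNGAA (a core of interferon response elements) and the NF-kappa B consensus. Serpinb9 held the interferon response core 45 bases before its start. Serpinb6a held that core 83 bases and the STAT motif 77 bases before its start, overlapping each other. Serpinb6b held none of the 4 motifs in this window, and neither did the same window before the other listed start of Serpinb6a. Among 32851 windows of the same length in the table, 7.02% held the STAT motif, 6.75% the AP-1 motif, 7.13% the interferon response core and 7.25% the NF-kappa B consensus, so single matches are common. A match is a description of letters, not evidence of binding.

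The host transcript of miR-155, Mir155hg, was at 3.51, 3.89 and 4.45 in KO and at 7.69, 6.59 and 8.21 in WT. Each array thus lay on the side of its label, though the extent of the deletion at this locus is not stated. The array medians lay between 6.45 and 6.49. Sex markers differed between arrays of a genotype. Xist was at 5.94 on KO replicate 2 and 5.66 on WT replicate 2 and between 12.59 and 13.35 on the other arrays, while the Y-linked Eif2s3y was at 3.50 on KO replicate 1 and 3.44 on WT replicate 1 and between 10.05 and 10.51 on the others. Both replicate 3 arrays therefore carried Xist and a Y-linked transcript together, so it is not certain that each of them holds 1 mouse, and the values of the serpins are also given without these arrays. The mean of 9 CD4 T cell markers was 11.24 to 11.50 in KO and 10.86 to 11.33 in WT, WT replicate 1 being the lowest array, while the mean of 9 neutrophil markers was at most 4.21. Of the 9 CD4 T cell markers 8 were higher in KO, with a median difference of 0.21, and 2 had an unadjusted limma p under 0.05. Of all 9295 genes tested, 4576 were higher and 4719 lower, and 7.43% had such a p. The part of the shift of these markers in the values of the serpins and of the lists was not tested.

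Of the 4 serpin genes measured, Serpinb1a stood apart between genotypes most clearly and Serpinb6b less so, both higher in KO, while Serpinb6a and Serpinb9 overlapped between genotypes. Serpinb1a was 2.69-fold and Serpinb6b 1.45-fold higher in KO, and the folds of Serpinb6a and Serpinb9 were 1.09 and 1.11. The 3 KO arrays lay above all WT arrays in 2 of the 4 genes and below them in 0, and over the 9295 genes tested 5.86% lay above and 6.92% below. The median difference of the 4 genes was 0.34, against -0.0035 over all genes tested. Since the genes were chosen with this comparison in view, neither figure supports anything about them.

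Serpinb1a, the leukocyte elastase inhibitor, measured 6.52, 6.28 and 6.90 on KO replicates 1, 2 and 3 and 4.89, 5.44 and 5.07 on WT replicates 1, 2 and 3. All KO arrays were higher, and the lowest KO array exceeded the highest WT array by 0.84. The means were 6.57 ± 0.31 and 5.14 ± 0.28 (SD, n = 3 each), a difference of 1.43 ± 0.21 (SE). The gap between genotypes was thus larger than the range within either, which was 0.61 in KO and 0.55 in WT. Among the genes tested, 0.43% had a larger difference in either direction.

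A weaker probe set of Serpinb1a ordered the genotypes the same way on a smaller scale. It measured 3.61, 3.80 and 3.91 in KO and 3.42, 3.42 and 3.49 in WT. The arrays again did not overlap, and the difference was 0.33, well short of that of the brighter probe set. The dimmest gene that was tested had a mean of 4.72, so this level is in the range where RMA compresses differences. By the naming of the array's maker, an s_at probe set such as this one can match transcripts of several genes, and Serpinb1a has close relatives in Serpinb1b and Serpinb1c. The mean of both probe sets differed by 0.88.

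Serpinb6b, the brightest probe set of the group, measured 11.50, 10.89 and 11.10 in KO and 10.85, 10.63 and 10.41 in WT. The genotypes did not overlap, but KO replicate 2 exceeded WT replicate 1 by only 0.036, far less than the spread within a genotype. The means were 11.16 ± 0.31 and 10.63 ± 0.22 (SD, n = 3 each), a difference of 0.53 ± 0.20 (SE). Of all genes tested, 9.59% had a larger difference in either direction.

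Serpinb9, the inhibitor of granzyme B, measured 8.82, 9.24 and 9.14 in KO and 9.68, 9.05 and 8.03 in WT. The KO arrays lay together inside the range of the WT arrays, which spanned 1.65 against 0.42 in KO. The means were 9.07 ± 0.22 and 8.92 ± 0.83 (SD, n = 3 each), and the difference of 0.15 ± 0.40 (SE) was within that spread. The WT standard deviation was unusual among genes, 1.30% of those tested having a larger one. The sign of the difference rested on WT replicate 3, without which it was -0.30, and it was -0.33 without both replicate 3 arrays.

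Serpinb6a measured 9.11, 8.76 and 8.86 in KO and 8.72, 8.91 and 8.71 in WT. It was the steadiest of the genes, with an SD of 0.15 over all 6 arrays, and the genotypes overlapped. The means were 8.91 ± 0.18 and 8.78 ± 0.12 (SD, n = 3 each), a difference of 0.13 ± 0.14 (SE). With 1 array left out the difference ranged from 0.026 without KO replicate 1 to 0.20 without KO replicate 2.

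**Figure D1:**
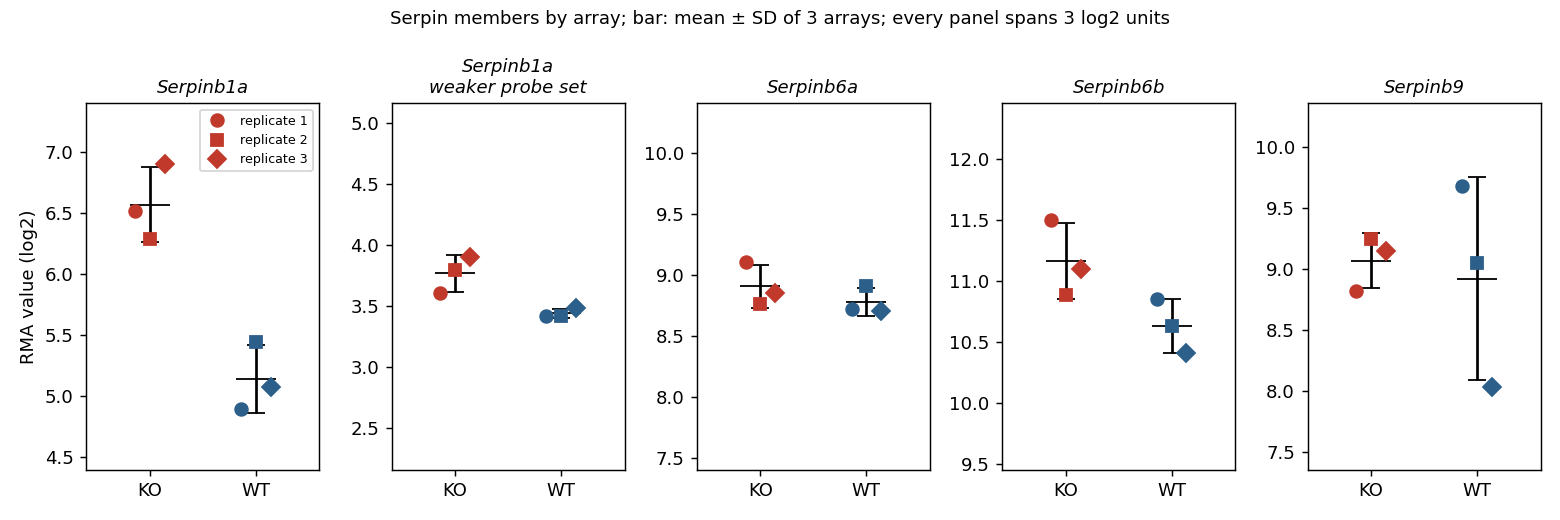
RMA values (log2) of the 5 serpin probe sets on each KO (red) and WT (blue) array, with mean and SD of 3 arrays; symbols give the replicate number and each panel spans the same number of log2 units. Serpinb1a has its KO arrays between 6.28 and 6.90 and its WT arrays between 4.89 and 5.44, while the WT arrays of Serpinb9 spread from 8.03 to 9.68.

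The sex markers allowed the genotypes to be set against each other within arrays of the same kind, since KO and WT arrays of the same replicate number had the same markers. For Serpinb1a, KO minus WT was 1.62 between the arrays without a Y-linked signal (replicate 1), 0.84 between those without Xist (replicate 2) and 1.82 between the replicate 3 arrays. For Serpinb6b it was 0.65, 0.26 and 0.69. For both genes the sign of these differences was already fixed, since no WT array reached a KO array, and only their sizes vary. Serpinb9 had -0.86, 0.19 and 1.12 and Serpinb6a 0.38, -0.15 and 0.15, with no common direction. Without both replicate 3 arrays the differences were 1.23 ± 0.25 (SE) for Serpinb1a and 0.45 ± 0.27 (SE) for Serpinb6b.

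The profiles of the members over the 6 arrays were set against those of the other 9294 genes tested, each centred on its own mean. The measure was the root mean square difference between profiles, in log2 units. It was applied to the 3 members whose SD over the arrays was at least 0.3, which left out Serpinb6a. Arrays share their RNA between genes, so likeness of this kind is a description.

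The gene nearest to Serpinb1a was another serpin, Serpinb5, known as maspin, at a root mean square difference of 0.13, where the median gene was at 0.78. The chemokine gene Ccl9 followed at 0.20 and Cited2, which encodes a transcriptional coregulator, at 0.28. Serpinb5 shared with Serpinb1a not only the higher KO arrays but also KO replicate 3 as the highest and WT replicate 1 as the lowest array. Whether the Serpinb1a and Serpinb5 probe sets share transcripts was not tested.

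Serpinb6b was most like Etv6, an ETS family repressor gene, at 0.085, the endocytosis gene Necap1 at 0.10 and Zeb1, a zinc finger repressor gene, at 0.11. In all of them KO replicate 1 was the highest array. The median gene was at 0.40 from Serpinb6b.

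Serpinb9 was most like Apobec1, which encodes an RNA-editing cytidine deaminase, at 0.13, Cmpk2, an interferon-induced nucleotide kinase gene, at 0.18 and Cd74, the invariant chain of MHC class II, at 0.19, with the median gene at 0.54. These genes shared a low value on WT replicate 3 and a high one on WT replicate 1. The mean of 6 B cell markers was 6.78, 6.65 and 5.94 on WT replicates 1, 2 and 3, in the order of Serpinb9. On KO replicates 1, 2 and 3 it was 6.46, 6.65 and 6.08. The KO arrays did not share that order, since the markers were lowest on replicate 3 and Serpinb9 on replicate 1. The part of B cells in the Serpinb9 values was not tested, and in such bulk samples more cells of a type cannot be told from more transcript per cell.

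**Figure D2:**
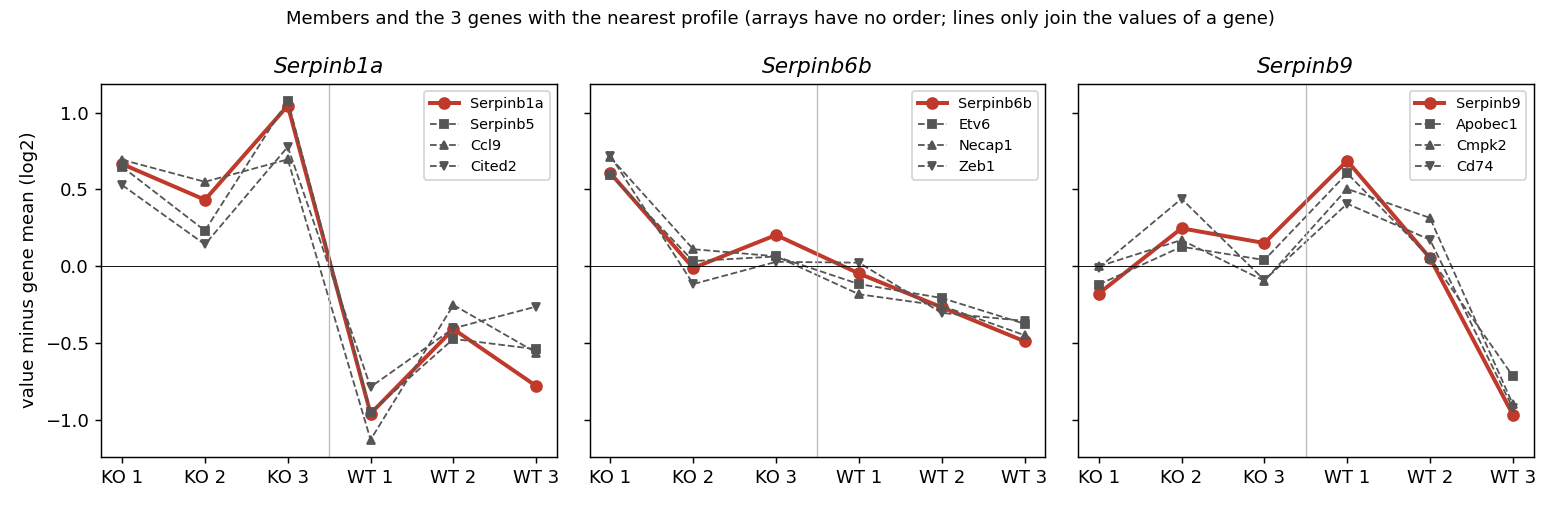
Values of Serpinb1a, Serpinb6b and Serpinb9 (red) and of the 3 genes nearest to each (grey) on the 6 arrays, minus the mean of the gene (log2). Serpinb5 follows Serpinb1a most closely, and Serpinb9 and its nearest genes are lowest on WT replicate 3.

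The array held 30 serpin genes with a probe set of their own, 26 of them outside the group. Of these 26, 10 were bright enough to be tested and 16 fell among the dimmest 25% of genes. None of the 10 passed a limma adjusted p of 0.05 over all genes, the smallest adjusted p being 0.631, and over all 9295 genes 0% passed. At an unadjusted limma p under 0.05, 2 of the 10 were higher in KO, Serpinb5 and Serpinb9b, and 0 were lower, against 3.57% higher and 3.86% lower over all genes. Serpinb5 passed the filter on dim genes only through its KO arrays, its WT mean lying under the limit of 4.72, so its place among these counts is not support for a difference. In 4 of the 10 the KO arrays lay above all WT arrays and in 0 below, against 5.86% above and 6.92% below over all genes. These 4 include Serpinb5, and the narrowest of their gaps was only 0.0018, so the count is not support for a difference.

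Serpinb5 measured 5.85, 5.43 and 6.28 in KO and 4.25, 4.73 and 4.66 in WT, a difference of 1.31 ± 0.24 (SE). Its genotypes were separated by 0.70. Its WT mean of 4.55 was in the range where RMA compresses differences. Its weaker probe sets, at means of 3.33 and 3.25, differed by 0.70 and 0.36. Serpinb9b, a close relative of Serpinb9, measured 5.74, 5.50 and 5.84 in KO and 5.46, 5.41 and 5.04 in WT, a difference of 0.39 ± 0.16 (SE), which was 0.26 without WT replicate 3. The relatives thus differed in pattern, Serpinb9b being lower in each WT array than in each KO array, if by only a little, and Serpinb9 overlapping.

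Serpinf1, which encodes the secreted pigment epithelium-derived factor, had the largest difference among serpins but overlapped between genotypes. It measured 12.14, 10.65 and 11.90 in KO and 8.83, 9.80 and 11.39 in WT, a difference of 1.56 ± 0.69 (SE) that ranged from 0.97 without WT replicate 1 to 2.25 without WT replicate 3. A second probe set of Serpinf1 differed by 1.67. Serpina3n, a clade A relative of Serpina3g, differed by 0.17 ± 0.11 (SE).

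**Figure D3:**
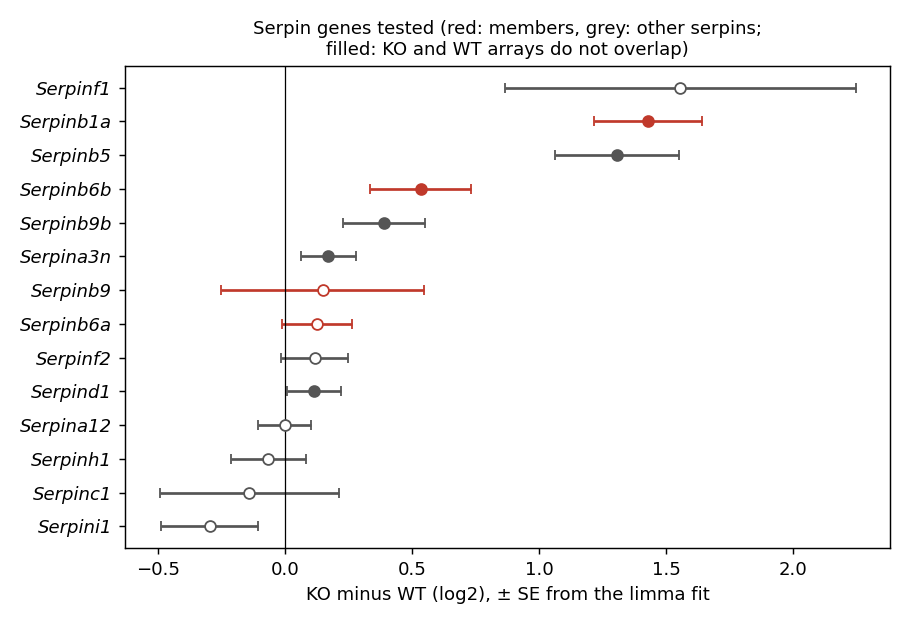
KO minus WT (log2) with its SE from the limma fit for the 14 serpin genes tested, members in red and others in grey, with filled points where the KO and WT arrays do not overlap. Serpinb1a at 1.43 and Serpinb5 at 1.31 lie close together above the rest of the clade B genes, and only Serpinf1, at 1.56 with a wide SE, lies further out.

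The 4 measured genes lie on chromosome 13 in one run of serpin genes, while Serpina3g lies on chromosome 12 (RefSeq, GRCm38.p6). From Serpinb1a to Serpinb6a the RefSeq table lists 34 genes, 16 of them protein-coding and all 16 named Serpinb. Of the 34, 9 had a probe set and 5 were tested. In gene order Serpinb6b and Serpinb9 are 5 and 6 places from Serpinb1a and next to each other, Serpinb9b is at place 8 and Serpinb6a at place 33. The KO minus WT differences in that order were 1.43, 0.53, 0.15, 0.39 and 0.13, all above 0 and of unequal size. The members were chosen with this comparison in view, so the shared sign is not support for a difference of the cluster. Serpinb9 was at -0.30 without WT replicate 3, and Serpinb6a at -0.023 with array weights. Wrnip1, the gene adjoining Serpinb1a on the outside, was on the other side of 0, at -0.36 ± 0.18 (SE), and Psmg4, beyond Serpinb6a, was at -0.26 (-0.083 without KO replicate 1). Of 90 genes within 15 places of any of the 5 members, 20 had a probe set and 11 were tested. Of these 11, KO was higher in 4 and lower in 7, the median was -0.059, 0 passed the limma adjusted p, and Serpinb9b was the 1 with an unadjusted limma p under 0.05. Of all 9295 genes tested, 4576 were higher and 4719 lower, and 7.43% had such a p.

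**Figure D4:**
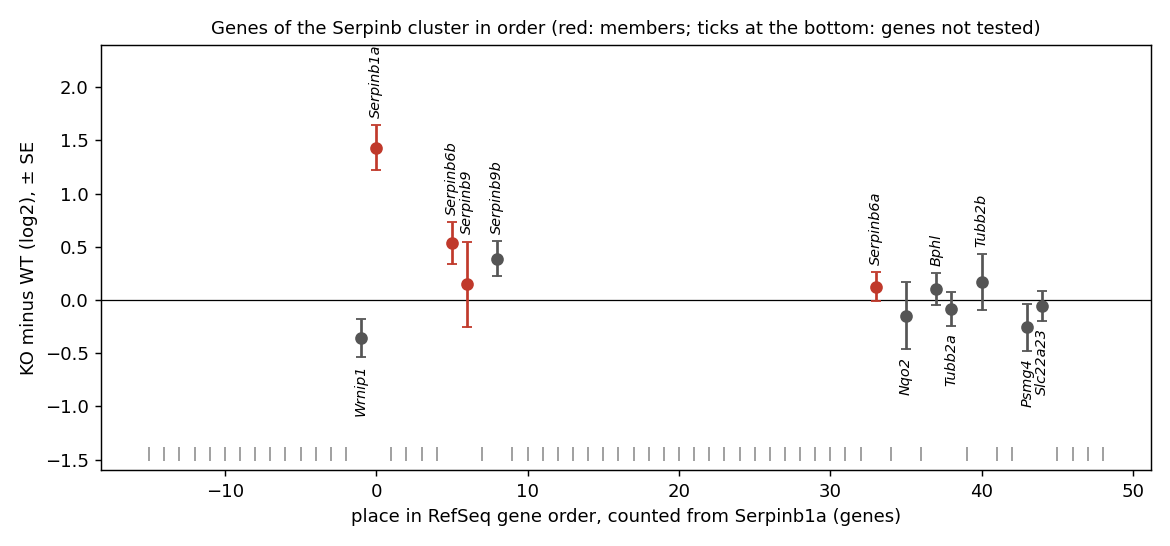
KO minus WT (log2) with its SE for the tested genes of the Serpinb cluster on chromosome 13, placed by gene order from Serpinb1a, with ticks for genes not tested. Serpinb1a stands at 1.43 beside Wrnip1 at -0.36, and the genes beyond Serpinb6a at place 33 lie between -0.26 and 0.17.

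Proteases that these serpins can meet were examined as fixed lists. Of all 9295 genes tested, 4576 were higher in KO and 4719 lower, the background for the counts of each list below. Over the other serpins, the chromosomal neighbours and the lists of proteases, inhibitors and transcription factors that follow, each gene counted 1 time, 80 genes were tested, 0 passed the limma adjusted p, and 12 had an unadjusted limma p under 0.05, all 12 higher in KO. That is 15%, against 7.43% of all genes tested. The lists were chosen with earlier results of these data known. The 12 also include Serpinb5, which passed the filter on dim genes only through its KO arrays. For both reasons this share is not support for a difference. Without WT replicate 2 it was 5 genes and without WT replicate 3 it was 23, so the count rests on single arrays.

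Of 12 granule genes, 6 were tested, 5 higher and 1 lower, with a median of 0.40. The 2 with an unadjusted limma p under 0.05 were Gzma, granzyme A, and Prf1, the pore-forming perforin. Gzma differed by 3.08 and lay between 13.07 and 13.34 in KO and between 8.78 and 10.86 in WT, and Prf1 differed by 1.27. Gzmb, granzyme B, the target of Serpinb9, measured 13.80, 13.70 and 13.65 in KO and 13.58, 13.49 and 13.37 in WT, a difference of 0.23 ± 0.11 (SE). Its genotypes did not overlap, unlike those of its inhibitor. Srgn, serglycin, the proteoglycan that packs granules, differed by 0.23.

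The proteases that Serpinb1a is best known to inhibit belong to neutrophils, and of these neutrophil elastase and cathepsin G were dim here. Elane, neutrophil elastase, measured between 4.33 and 4.85 on the 6 arrays and Ctsg, cathepsin G, between 3.57 and 4.10, and neither was tested because their means lay in the lowest 25%. Prtn3, proteinase 3, was tested and differed by 0.25 (0.14 without KO replicate 1), with overlapping arrays. Over 9 of 10 neutrophil markers with a probe set, the mean was 4.06 to 4.21 in KO and at most 4.10 in WT. The neutrophil markers S100a8 and S100a9 lay between 3.39 and 3.95 on all arrays, also among the dimmest genes, and differed by -0.056 and -0.16. Cxcr2, the 1 neutrophil marker that was tested, differed by 0.49, with overlapping arrays. The part of neutrophils in the Serpinb1a values was not tested. Of the 10 neutrophil and mast cell proteases on the array 3 were tested, all 3 higher and 0 with an unadjusted limma p under 0.05. Besides Prtn3 these were the mast cell proteases Tpsab1, at 0.18 (0.051 without KO replicate 3), and Mcpt4, at 0.057 (0.013 without WT replicate 2). Mcpt4 passed the filter on dim genes only through its KO arrays, its WT mean of 4.71 lying under the limit of 4.72.

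Of 14 lysosomal cathepsins and related genes 13 had a probe set and all 13 were tested. KO was higher in 10 and lower in 3, and the median was 0.37. An unadjusted limma p under 0.05 was found for Ctsa at 0.57 ± 0.17 (SE), Lgmn, the asparaginyl protease legumain, at 1.48, and Ctsd, the aspartic protease cathepsin D, at 0.45. Ctsk, cathepsin K, differed by 0.25. It passed the filter on dim genes only through its KO arrays, its WT mean of 4.70 lying under the limit of 4.72, so its place among the higher genes is not support. The mean of the list was 9.15, 8.72 and 9.01 on KO replicates 1, 2 and 3 and 8.15, 8.40 and 8.77 on WT replicates 1, 2 and 3.

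Of 16 other protease inhibitor genes tested, 11 were higher and 5 lower, with a median of 0.19. Timp1, an inhibitor of metalloproteases, differed by 1.24, and the inhibitor of apoptosis genes Birc3 and Birc2 by 0.60 (0.37 without KO replicate 1) and 0.53. These were the 3 with an unadjusted limma p under 0.05. Cst7, cystatin F, an inhibitor of cathepsins in cytotoxic cells, differed by 0.64 and ranged from 0.31 without WT replicate 1 to 0.94 without WT replicate 3. Of 6 caspases, Casp6 at 0.59 was the 1 with an unadjusted limma p under 0.05, 3 were higher and 3 lower, and Casp2, Casp4 and Casp9 were at 0.15, 0.17 and -0.061, with Casp2 at 0.081 and Casp4 at -0.10 without KO replicate 3, and Casp9 at 0.046 without WT replicate 3.

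Transcription factors of the STAT, IRF and Rel families, which act on many serpin genes, were 13 higher and 5 lower of 18 tested, with a median of 0.12. Of all 9295 genes tested, 4576 were higher and 4719 lower. Bcl3, an atypical regulator of NF-kappa B, was the 1 with an unadjusted limma p under 0.05, at 0.88 (0.56 without WT replicate 1). Of all genes tested 7.43% had such a p, so 1 such gene among 18 is not more than that share. Stat2 differed by 0.17 and Stat4 by -0.23 (-0.13 without KO replicate 1). Irf8 differed by -0.62 and ranged from -1.05 without WT replicate 3 to -0.32 without WT replicate 2. On the WT arrays Irf8 measured 10.87, 11.20 and 9.74, so WT replicate 3 was its lowest WT array, as for Serpinb9.

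Markers of other cells that bead isolation can carry along were also measured. The mean of 4 CD8 T cell markers was 6.45 to 6.79 in KO and 6.57 to 7.05 in WT, and that of 3 NK cell markers was 4.63 to 4.71 in KO and 4.46 to 4.86 in WT. The mean of 9 macrophage and monocyte markers was 4.95 to 4.98 in KO and 4.78 to 4.98 in WT. That mean averages markers that went both ways. Of the 5 tested, 4 were higher in KO and 1 lower, with Cd68 at 0.63 and Mpeg1 at -0.61, and the arrays of all 5 overlapped. Of all 9295 genes tested, 4576 were higher and 4719 lower. The 5 mast cell and basophil markers were all among the dimmest 25% of genes. The part of these cells in the serpin values was not tested.

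**Figure D5:**
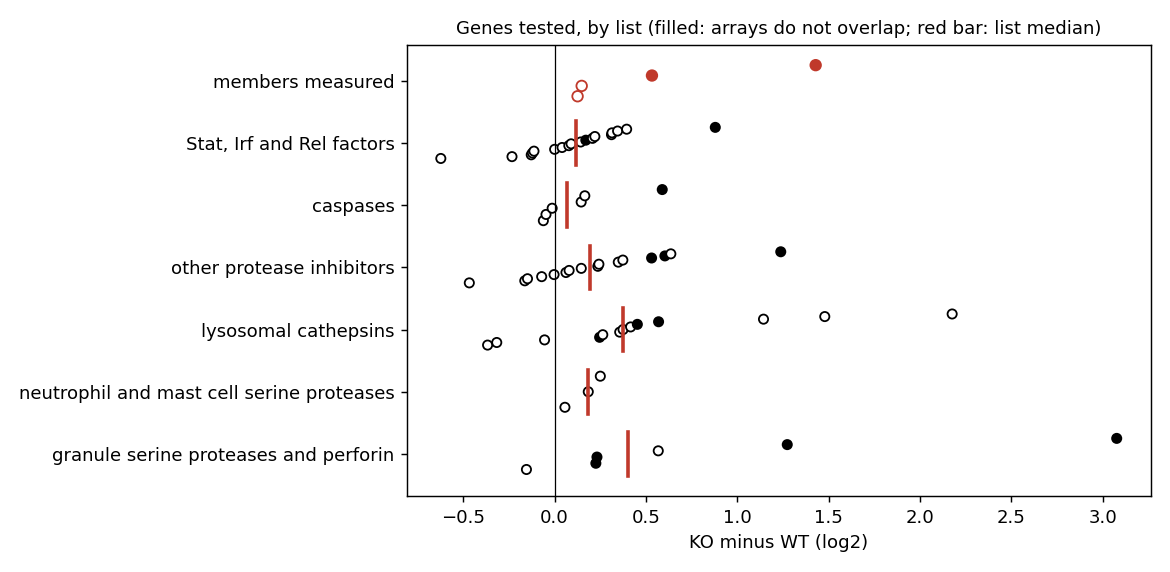
KO minus WT (log2) of each tested gene in 6 fixed lists and of the 4 measured serpins, with filled points where KO and WT arrays do not overlap and a red bar at the median of each list. The list medians lie between 0.066 for caspases and 0.40 for granule genes, and the highest single point is Gzma at 3.08.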

How the data were processed

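The deposited table held log2 values of 6 arrays. The authors used RMA from affy, per the submitters' processing notes, with no version given. GEO's platform annotation gave 1 symbol for 20393 probe sets, several for 691 and none for 1606. The brightest probe set on average stood for each gene. The dimmest 25% of genes (3099) were left out, leaving 9295. The genotypes were tested by limma 3.58.1 under R 4.3.3 (lmFit, eBayes without trend, two-sided, Benjamini-Hochberg over all genes, adjusted p under 0.05). The SE is the moderated one. The code was tested on simulated data. Members, lists and tests were chosen with earlier results of these data known. Named were all members, the 4 genes with the smallest limma p per list and the 3 nearest profiles per member. Elane, Ctsg, S100a8, S100a9, Cxcr2, Cd68, Mpeg1, Eif2s3y and Xist were named beyond that rule, as checks. Alternatives were median centring, a further quantile normalization, the mean of probe sets, a replicate block, array weights (statmod 1.5.0), other filters, eBayes with trend and robust settings, and each array left out. Leaving out both replicate 3 arrays was chosen after seeing the data. The number of arrays limits the precision.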

Additional observations from a re-analysis of the deposited data

How the results depend on the processing

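The differences of the 4 serpin genes moved by less than 1 SD between replicates under median centring, the further quantile normalization, the replicate block, array weights and each set of arrays left out. The exception was Serpinb1a with the mean of its probe sets (0.88). Serpinb1a and Serpinb6b kept their sign in these; Serpinb9 did not, as given above, and Serpinb6a was -0.023 with array weights. Serpinb1a is not among the genes tested when the dimmest 50% are left out. The count of genes with adjusted p under 0.05 was 0 in all alternatives but array weights, which gave 3581 genes, 4712 at an unadjusted p under 0.05 and 45 of the list genes. That setting weighted KO replicate 3 by 5.55 and WT replicate 2 by 5.05 and the other 4 arrays by 0.27 to 0.58, so it rests on a single array per genotype.

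The unadjusted count, 691, ranged from 276 to 1540 with 1 array left out and was 445 without both replicate 3 arrays. The count of genes whose arrays did not overlap, 1188, ranged from 1579 to 3544 with 1 array left out and was 4001 without both, where fewer arrays make separation easier. List genes at an unadjusted p under 0.05, 12 in all, ranged from 5 to 23 with 1 array left out and were 7 with the dimmest 50% left out. With the replicate number as a block (replicate block) they were 19. Arrays of the same number correlated in their deviations from the genotype means at -0.042, 0.64 and 0.40, and KO replicate 1 correlated best with WT replicate 3 (0.39). The numbers were therefore not taken as pairs in the main fit, although the sex markers matched by number. With the block, 918 genes had an unadjusted limma p under 0.05 and 0 an adjusted one. The SE of Serpinb6b was then 0.14, against 0.20 in the main fit.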

Other observations

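Probe sets shared by several serpin genes were left out of the gene comparison. The probe set matching Serpinb9e, Serpinb9f, Serpinb9g and Serpinb9h, relatives of Serpinb9 within the cluster, measured between 3.56 and 3.87 in KO and between 3.69 and 3.91 in WT. It was dimmer than every gene tested (means of 4.72 and above), and its difference was -0.018. The probe sets shared by Serpina1 genes, which encode secreted elastase inhibitors of liver, differed by -0.017 and -0.030 and were dimmer still.

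Among the cathepsins the largest difference was that of Ctse, an aspartic protease gene singled out after its values were seen. It measured 11.50, 9.05 and 11.60 in KO and 6.92, 7.75 and 10.95 in WT, a difference of 2.18 with overlapping arrays that ranged from 1.37 without WT replicate 1 to 3.38 without WT replicate 3. Serpinf1 had the same order of arrays within each genotype apart from the highest KO array.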
